A study of Homo sapiens with 56 samples.

Results

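Ubiquitin, the VCP segregase with its cofactors, and the NFE2L1 factor that renews proteasomes form one line of defence against unfolded and undegraded protein. The 9 genes described here, UBB, NFE2L1, DDI2, VCP, NPLOC4, UFD1, ZFAND2A, ZFAND5 and USP14, were taken by their symbols from the 21595 named genes of an expression table of mantle cell lymphoma cell lines, and all 9 were found. Every library had each of them, from the 13.7 CPM of the lowest UFD1 value to the 4402 CPM of the highest UBB value. CPM is the usual unit of reads scaled to a fixed library total. Unless called deposited, it refers here to the reads of non-mitochondrial genes, for a reason given below.

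The study measured poly-A RNA by sequencing in 56 libraries of 4 human cultures of this B-cell lymphoma: JEKO-1 (15 libraries), MINO-P (15), MINO-VR (13) and Z138 (13). P and VR are not explained in the labels, nor is any dose or time. Cells were untreated (CON, 5 libraries) or received CLF (6), BTZ (6), IBR (11), YM155 (4) or S63845 (6), or the pairs IBR_CLF (8), BTZ_CLF (4), IBR_YM155 (2), BTZ_YM155 (2), IBR_S63845 (1) and BTZ_S63845 (1). The design text speaks of a proteasome inhibitor and a BTK inhibitor. BTZ and IBR are read here as bortezomib and ibrutinib, the usual meaning of these codes, while CLF is not spelled out and is used as a code. YM155 is a small molecule developed against BIRC5 expression, and S63845 inhibits the MCL-1 protein. Combining line and treatment gave 37 groups: 22 had a single library, 11 had 2 and 4 had 3.

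Ubiquitin is a small protein that enzymes attach in chains to other proteins, and a chain of a suitable kind marks its carrier for the proteasome. VCP is a ring-shaped ATPase that pulls ubiquitylated proteins out of membranes and complexes, and NPLOC4 and UFD1 together form the adaptor that lets it recognise the chains. NFE2L1 is a transcription factor made at the endoplasmic reticulum: VCP extracts it, and when proteasomes are blocked the protease DDI2 cuts it into an active form that switches on proteasome genes. ZFAND2A and ZFAND5 are zinc finger proteins that bind the proteasome, the former known as a stress-induced gene, the latter as an activator of protein breakdown. USP14 is the deubiquitylase that sits on the proteasome and trims chains. Proteasome inhibitors are used in mantle cell lymphoma and in plasma cell myeloma.

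Library quality bears on all values below. Mitochondrial transcripts took 1.91% to 80.5% of a library, and over 50% in 6 JEKO-1 libraries (2 each of BTZ, BTZ_CLF and IBR_CLF), which is why levels are scaled to non-mitochondrial reads only. This share lay between 1.91% and 3.92% in the CON libraries, between 4.11% and 67.6% in BTZ and between 5.59% and 20.9% in IBR, and its part in the differences below was not tested. JEKO-1 BTZ replicate 3 stood apart: across 9783 genes its correlation with the nearest library was 0.668 and with the best other library of its own group 0.515. Z138 IBR replicate 1 was closer to the Z138 BTZ library (0.923) than to the other Z138 IBR library (0.870). The B-cell marker MS4A1 was at 206 CPM or more and cyclin D1 (CCND1), the gene that marks this lymphoma, at 207 CPM or more in every library. Among 6 markers of other cell types, the highest levels were 0.743 CPM for CD3E and 4.13 for CD3D (T cells), 4.53 for CD14 and 12.5 for LYZ (myeloid cells), 21.5 for EPCAM (epithelium) and 74.8 for COL1A1 (fibroblasts), the last in Z138, and their part in the results was not tested. No label says that libraries of a group came from separate cultures, and 8 pairs in MINO and JEKO-1 whose names differ by a final letter had a median absolute log2 difference of 0.11 to 0.37, against 0.34 to 1.45 in 10 other pairs, so the p-values measure only the spread between libraries. In bulk RNA, fewer cells of a kind and less RNA per cell cannot be told apart.

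With BTZ, most of these genes rose. A balanced layout was that of 8 MINO libraries of a single series (the library names begin with HK or MCL, and these are the HK ones), in which each of CON, CLF, BTZ and BTZ_CLF was made once in MINO-P and once in MINO-VR. Here 8 of 9 genes were called (limma with Benjamini-Hochberg adjustment over 13442 genes, adjusted p under 0.05), 7 up and 1 down, against a background of 56.2% of all genes called. ZFAND2A, NPLOC4, UFD1, ZFAND5, USP14, VCP and UBB rose and DDI2 fell. The same 8 of 9 were called whichever of the 8 libraries was left out. The median difference of the 9 genes was 1.38 on the log2(CPM + 1) scale, and that of all genes -0.18. As an exact permutation test over 4 matched pairs allows no p below 0.125 (two-sided), and all 9 genes gave 0.125, the calls rest on the spread shared across genes.

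Over all 4 lines, in a model of 56 libraries that accounts for treatment, line and library series, 5 of 9 genes were called in BTZ against CON, all higher, where 18.6% of 17203 genes were called. They were ZFAND2A, ZFAND5, NPLOC4, UFD1 and USP14. JEKO-1 BTZ replicate 3 decided much of this count: without it 8 of 9 were called, 7 up and 1 down (23.3% of all genes), the additions being UBB, VCP and DDI2. With CPM as deposited, mitochondrial reads included, 2 of 9 were called (ZFAND2A and ZFAND5). The scaling moved all genes: 838 genes were higher and 2366 lower with a median of -0.17 as scaled here, 288 and 3678 with a median of -0.42 as deposited, and 1353 and 1877 with a median of -0.07 under median-of-ratios size factors. In the MINO layout, 8 of 9 genes were called under each of these scalings.

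**Figure D1:**
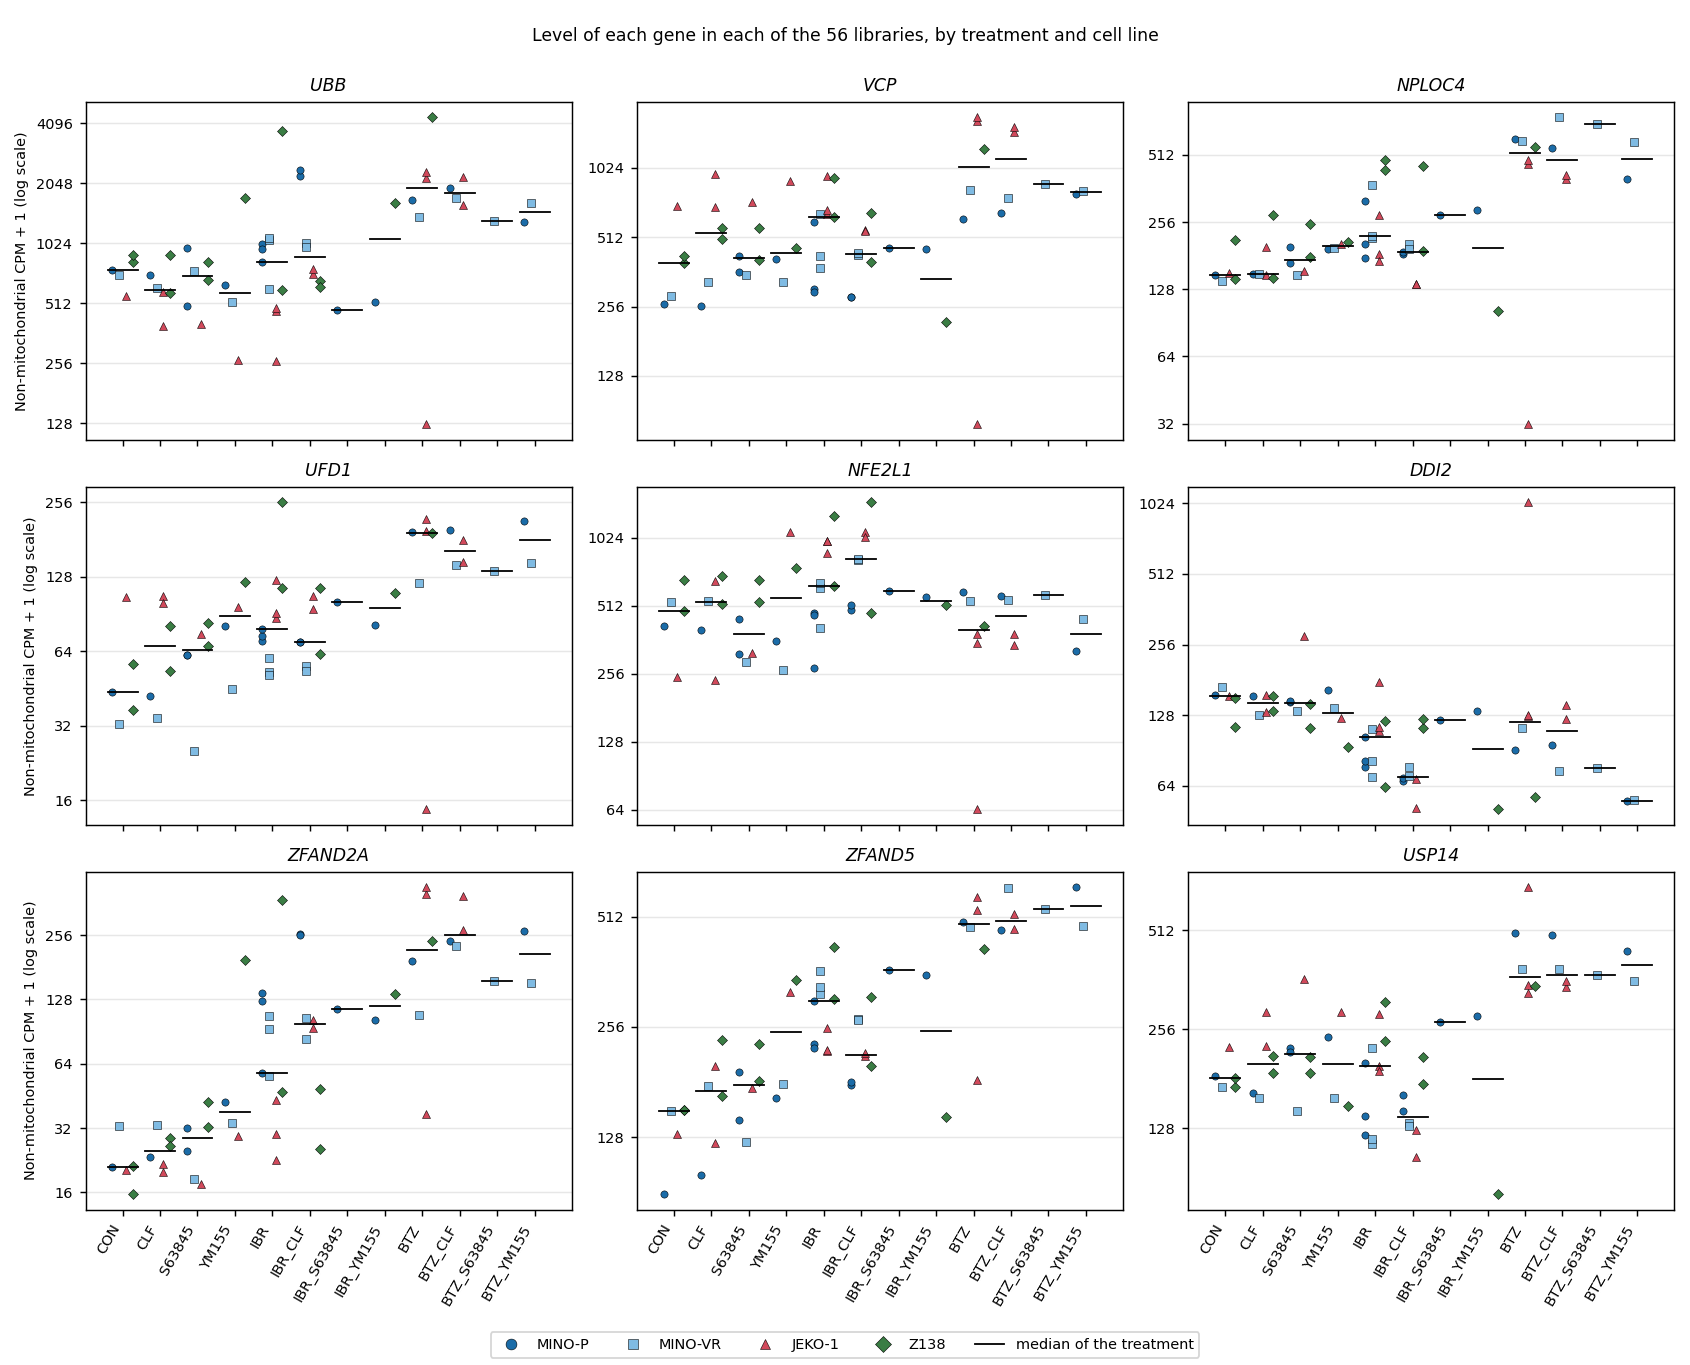
Level of each of the 9 genes in each of the 56 libraries, as non-mitochondrial CPM + 1 on a log axis, by treatment (columns) and cell line (colour and shape), with the median of each treatment as a line. ZFAND5 and NPLOC4 sit highest in the 4 columns with BTZ, NFE2L1 in IBR_CLF, and the single JEKO-1 BTZ library far below the others in VCP, NPLOC4, UFD1 and NFE2L1 is replicate 3.

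**Figure D2:**
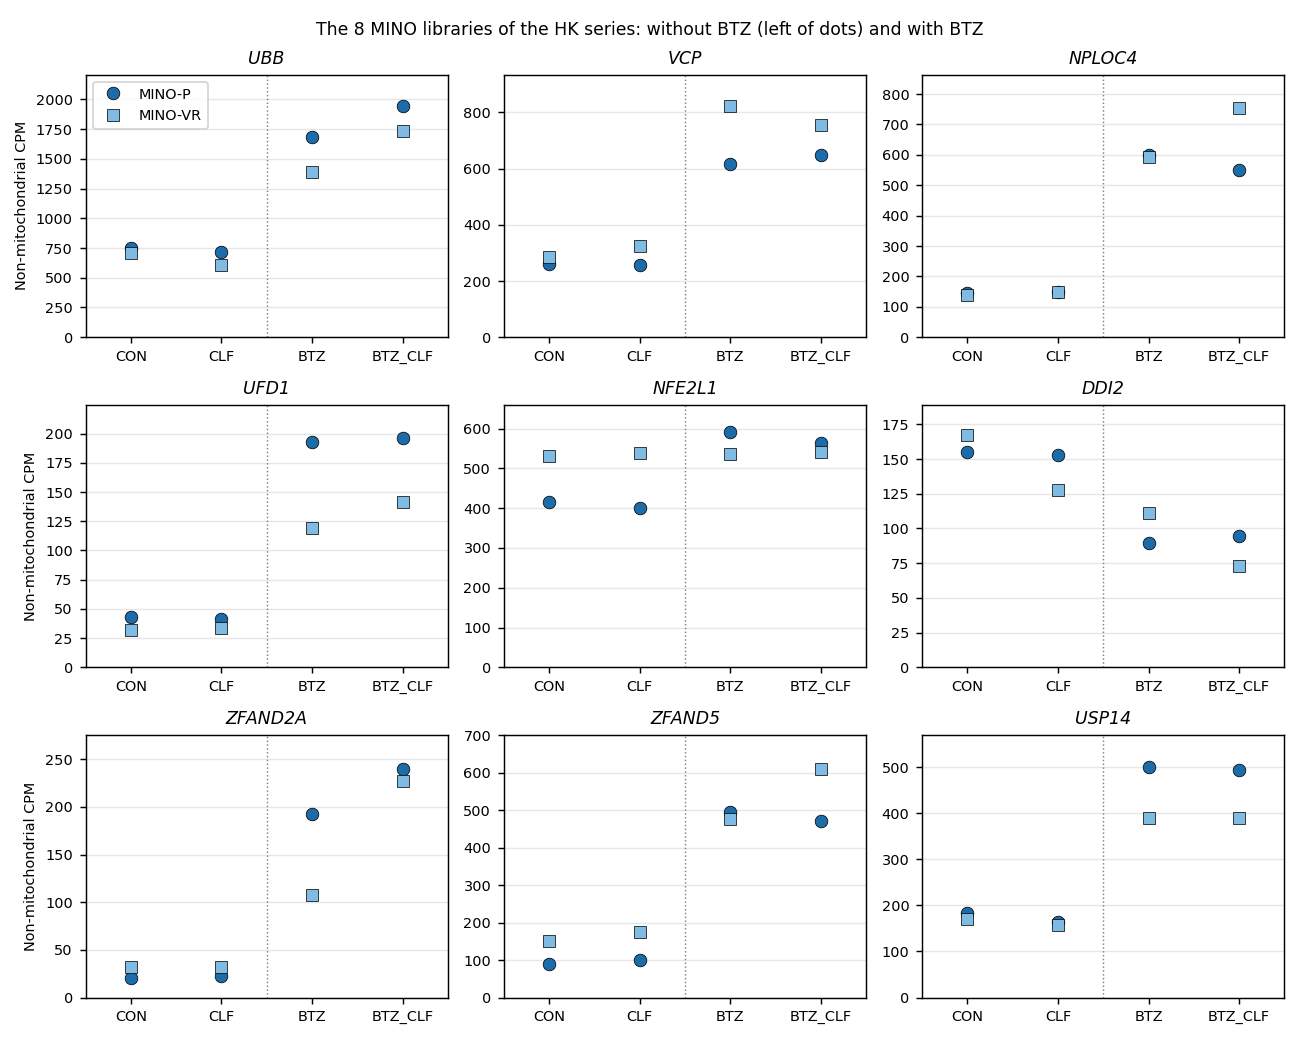
The 8 MINO libraries in which BTZ was absent (CON, CLF) or present (BTZ, BTZ_CLF), as non-mitochondrial CPM on a linear axis that starts at 0, with 1 point per library. The libraries with BTZ lie above those without it in 7 panels, below them in DDI2, and overlap in NFE2L1.

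The DNA before the start sites was set side by side for the gene with the largest rise (ZFAND2A) and for VCP and USP14. DDI2, which fell in MINO, was added. In BTZ against CON, ZFAND5 (1.74) and NPLOC4 (1.31), which are not printed, rose more than USP14 (1.12) and VCP (0.77, not called). The printed genes thus do not follow the size of the rise. RefSeq promoter windows on GRCh38.p14 were found for 8 of 9 genes, and UFD1 had no entry. Shown are the 250 bases before the start site, 5′ to 3′ on the gene's own strand. They lie at chr7:1160197-1160446 (minus strand) for ZFAND2A, at chr9:35072626-35072875 (minus) for VCP, at chr18:158307-158556 (plus) for USP14 and at chr1:15617208-15617457 (plus) for DDI2. Capitals mark matches, on either strand, to the heat shock pairs GAANNTTC and TTCNNGAA and to the antioxidant-type motif TGACNNNGC, to which NFE2L1 and its relatives are known to bind.
ZFAND2A: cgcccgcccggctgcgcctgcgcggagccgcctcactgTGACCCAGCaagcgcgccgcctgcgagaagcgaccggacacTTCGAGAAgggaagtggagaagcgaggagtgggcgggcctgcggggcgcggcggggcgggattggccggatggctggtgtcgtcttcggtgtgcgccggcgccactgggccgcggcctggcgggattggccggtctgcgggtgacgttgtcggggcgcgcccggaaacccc
VCP: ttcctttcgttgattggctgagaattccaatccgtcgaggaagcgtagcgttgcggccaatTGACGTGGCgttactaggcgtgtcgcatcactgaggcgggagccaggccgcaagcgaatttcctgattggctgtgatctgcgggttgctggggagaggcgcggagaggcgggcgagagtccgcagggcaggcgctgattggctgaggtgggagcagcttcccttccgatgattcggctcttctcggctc
USP14: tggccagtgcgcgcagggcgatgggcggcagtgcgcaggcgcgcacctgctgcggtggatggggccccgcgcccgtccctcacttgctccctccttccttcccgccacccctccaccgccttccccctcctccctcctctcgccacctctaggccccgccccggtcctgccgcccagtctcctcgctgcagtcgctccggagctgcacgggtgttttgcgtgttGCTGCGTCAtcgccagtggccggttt
DDI2: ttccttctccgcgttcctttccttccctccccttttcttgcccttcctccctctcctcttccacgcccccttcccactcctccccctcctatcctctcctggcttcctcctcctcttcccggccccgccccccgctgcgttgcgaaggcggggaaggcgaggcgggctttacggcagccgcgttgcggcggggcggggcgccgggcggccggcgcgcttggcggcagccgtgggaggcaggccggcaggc

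The upstream stretch of ZFAND2A held 1 heat shock pair, which began 171 bases before the start site, and 1 antioxidant-type match 212 bases before it. VCP held the latter 189 bases and USP14 26 bases before the start. In the full windows, which run to 50 bases after the start, ZFAND5 held it in 1 of 3 listed windows, and UBB in both of its windows, 22 bases after 1 start site and 30 bases before the other. The NPLOC4 windows lie inside the gene, 71032 and 81863 bases from the 5′ end given for it below, so the DNA before that end was not searched. The windows of ZFAND2A and UBB also lie inside the gene spans given below. Their start sites are 563 bases (ZFAND2A) and 492 and 543 bases (UBB) from the 5′ end. The DNA before the 5′ end of these genes was not searched either. Of the 7 genes with a window within 1000 bases of the gene's 5′ end, 5 had a TGACNNNGC match, as did 16.1% of 27305 genes with a window, and 1 had a heat shock pair, as did 16.2%. NFE2L1 and DDI2 had neither. No window of these genes held 3 alternating heat shock units in a row (both pairs overlapping by a unit), a feature of 0.49% of 35116 windows. These matches only say which letters stand in these windows.

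UBB (chr17:16380798-16382745, plus strand, ENSG00000170315, hg38) encodes a chain of ubiquitin units that is cut into single ubiquitins. Untreated cells had 748 CPM in MINO-P, 707 in MINO-VR, 558 in JEKO-1 and 827 and 900.0 in Z138. With BTZ the level was 1686 CPM in MINO-P, 1387 in MINO-VR, 2189, 2349 and 126 in JEKO-1 and 4402 in Z138. All BTZ libraries but JEKO-1 replicate 3 lay above every untreated one. The fitted difference in BTZ against CON was 1.21 (SE 0.48, limma adjusted p 0.0719), which did not pass, and 1.78 (SE 0.38, limma adjusted p 0.000415) without that library. In the MINO layout UBB rose by 1.27 (SE 0.13, limma adjusted p 0.000131). BTZ_CLF gave 1941 CPM in MINO-P, 1730.0 in MINO-VR and 1602 and 2195 in JEKO-1, against 396 to 897 CPM in the 6 CLF libraries. These groups did not overlap, and UBB rose by 1.91 (SE 0.52, limma adjusted p 0.00805).

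Outside BTZ, UBB was high in a few libraries. Of the 11 IBR libraries the lowest had 263 CPM, the median was 825 CPM and the highest, Z138 replicate 1, had 3754. That library apart, IBR lay within 263 to 1086 CPM, around the untreated range, and the fitted difference was 0.04 (SE 0.47, limma adjusted p 0.975). The MINO-P IBR_CLF libraries had 2228 and 2380.4 CPM, above the 619.6 to 1028 of the 6 other IBR_CLF libraries. In Z138, YM155 alone gave 1725 CPM and IBR_YM155 1625, while YM155 in the other lines gave 264 to 636. The units of UBB resemble those of the pseudogene UBBP4 (at most 14.5 CPM), so reads could have been split between them and the value of UBB is uncertain.

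VCP (chr9:35053928-35072668, minus strand, ENSG00000165280), the segregase itself, had 261 CPM in untreated MINO-P, 284 in MINO-VR, 393 and 424 in Z138 and 701 in JEKO-1. BTZ libraries had 615 in MINO-P, 822 in MINO-VR, 1239 in Z138 and 1639.8, 1701 and 77.8 in JEKO-1. Because untreated JEKO-1 was already higher than BTZ-treated MINO-P, the groups overlapped, although within each line all BTZ libraries except JEKO-1 replicate 3 were above the untreated ones. VCP rose by 1.33 (SE 0.10, limma adjusted p 4.16e-05) in the MINO layout. Over all lines its difference was 0.77 (SE 0.42, limma adjusted p 0.205), not past the threshold, and 1.43 (SE 0.22, limma adjusted p 3.88e-06) without JEKO-1 replicate 3. In BTZ_CLF against CLF the value was 1.09 (SE 0.45, limma adjusted p 0.0882), and 0.49 (SE 0.41, limma adjusted p 0.518) in IBR against CON.

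NPLOC4 (chr17:81556887-81648465, minus strand, ENSG00000182446) is a subunit of the VCP adaptor. Untreated libraries had 147 CPM in MINO-P, 139 in MINO-VR, 151 in JEKO-1 and 141 and 212 in Z138. With BTZ the levels were 599.9, 592, 465 and 487, and 555 CPM, while JEKO-1 replicate 3 had 30.8. The rise was 1.31 (SE 0.40, limma adjusted p 0.0157) over all lines, 1.89 (SE 0.25, limma adjusted p 4.4e-07) without that library and 2.08 (SE 0.11, limma adjusted p 1.44e-05) in MINO. BTZ_CLF libraries, at 397 to 755 CPM, lay above all CLF libraries, at 142 to 274 CPM, a rise of 1.71 (SE 0.43, limma adjusted p 0.0041). BTZ_YM155 gave 398 and 583 CPM and BTZ_S63845 703 CPM. Among the libraries without BTZ the highest were 2 of IBR and 1 of IBR_CLF in Z138, with 484, 437 and 454 CPM.

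UFD1 (chr22:19449911-19479202, minus strand, ENSG00000070010), the partner of NPLOC4 in the adaptor, differed more between untreated lines, with 31.7 CPM in MINO-VR, 42.7 in MINO-P, 36.1 and 55.7 in Z138 and 105 in JEKO-1. With BTZ it had 119.5, 193, 191, and 195 and 219 CPM in these lines, and 13.7 in JEKO-1 replicate 3. It rose by 1.26 (SE 0.39, limma adjusted p 0.0174) over all lines and by 2.08 (SE 0.10, limma adjusted p 1.18e-05) in MINO. Without JEKO-1 BTZ replicate 3 the rise was 1.84 (SE 0.24, limma adjusted p 2.06e-07). Leaving out MINO-P BTZ replicate 1 (adjusted p 0.0568) or Z138 CON replicate 1 (adjusted p 0.0598) ended the call in all lines. UFD1 rose by 1.45 (SE 0.42, limma adjusted p 0.0124) in BTZ_CLF against CLF. An antisense transcript, UFD1-AS1, reached 7.85 CPM, and without a statement of strand use its reads cannot be told apart from those of UFD1. NPLOC4 and UFD1 both lost the call in BTZ against CON when libraries whose names differ only by a final letter were averaged (adjusted p 0.109 and 0.137), and when the libraries over 50% mitochondrial were left out (0.151 and 0.141), which leaves replicate 3 as the only JEKO-1 BTZ library. Both calls were also lost without any one of MINO-P, MINO-VR or Z138.

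NFE2L1 (chr17:48048329-48061545, plus strand, ENSG00000082641), the transcription factor, was not called in BTZ against CON, in BTZ_CLF against CLF or in the MINO layout. Untreated libraries had 247 CPM in JEKO-1, 414 in MINO-P, 530.5 in MINO-VR and 663 and 485 in Z138. BTZ libraries had 381, 350.3 and 63.2 CPM in JEKO-1, 590.5 in MINO-P, 537 in MINO-VR and 417 in Z138, so the groups overlapped. Its differences were -0.35 (SE 0.36, limma adjusted p 0.552) over all lines, 0.04 (SE 0.29, limma adjusted p 0.943) without JEKO-1 replicate 3 and 0.25 (SE 0.12, limma adjusted p 0.111) in MINO, none past the threshold. A p that misses the threshold does not show that the level stayed the same.

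IBR went with higher NFE2L1. The 11 IBR libraries ran from 270.1 CPM through a median of 624 to 1276, and the 8 IBR_CLF libraries from 477 through 821 to 1475. JEKO-1 had the highest values relative to its untreated library: its IBR libraries had 997, 995 and 881 CPM and its YM155 library 1089.9, against 247 untreated. That untreated value is 1 library, and the 2 JEKO-1 CLF libraries were far apart, at 238 and 657 CPM. NFE2L1 rose by 1.15 (SE 0.35, limma adjusted p 0.0259) in IBR against CON and by 1.22 (SE 0.34, limma adjusted p 0.0229) in IBR_CLF against CLF, a call lost without JEKO-1 CLF replicate 1 (adjusted p 0.0864) or JEKO-1 IBR_CLF replicate 1 (0.0519). Within lines the IBR difference was 1.95 in JEKO-1, 0.65 in Z138, 0.04 in MINO-VR and -0.08 in MINO-P. Without JEKO-1 the fitted difference was 0.53 (adjusted p 0.321), and without the library-series term 0.62 (adjusted p 0.244). The call was also lost without the CON library of JEKO-1 (adjusted p 0.113), that of MINO-P (0.0559) or Z138 CON replicate 2 (0.0509). In BTZ against IBR, NFE2L1 was lower with BTZ, at -1.49 (SE 0.33, limma adjusted p 0.00133). This was -0.53 (adjusted p 0.416) without JEKO-1.

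DDI2 (chr1:15617458-15669044, plus strand, ENSG00000197312), the protease that activates NFE2L1, was the member that fell with BTZ in MINO. Untreated libraries had 155 CPM in MINO-P, 167 in MINO-VR, 154 in JEKO-1 and 113 and 151 in Z138. With BTZ they had 89.8 in MINO-P, 111 in MINO-VR, 126 and 127 in JEKO-1 and 56.4 in Z138, each below the untreated level of its line. JEKO-1 BTZ replicate 3 instead had 1034 CPM, the highest DDI2 level of the 56 libraries. In the MINO layout the difference was -0.71 (SE 0.13, limma adjusted p 0.00213). Over all lines the difference was -0.17 (SE 0.35, limma adjusted p 0.797), and -0.65 (SE 0.25, limma adjusted p 0.0475) without JEKO-1 replicate 3. The lowest DDI2 levels were those of Z138 IBR_YM155 (49.9 CPM), JEKO-1 IBR_CLF replicate 1 (50.8 CPM) and the BTZ_YM155 libraries (54.0 and 54.9 CPM). In IBR against CON the difference was -0.73 (SE 0.35, limma adjusted p 0.183) and in IBR_CLF against CLF -0.92 (SE 0.34, limma adjusted p 0.0851), neither past the threshold. In IBR_CLF against CLF it was -0.85 (limma adjusted p 0.0106) without JEKO-1 BTZ replicate 3, which enters that fit through the terms and the spread that all libraries share. The small gene RSC1A1 lies within the span of DDI2 and reached 18.8 CPM.

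ZFAND2A (chr7:1151903-1160759, minus strand, ENSG00000178381), the stress-induced zinc finger gene, changed most. Its untreated libraries had 20.1 CPM in MINO-P, 31.9 in MINO-VR, 19.4 in JEKO-1 and 20.3 and 14.7 in Z138. With BTZ it had 193 in MINO-P, 108 in MINO-VR, 396, 428 and 36.2 in JEKO-1 and 239.6 in Z138. Every BTZ library lay above every untreated one, JEKO-1 replicate 3 included. This held for 3 of the 9 genes (ZFAND2A, ZFAND5 and USP14) and for 0.953% of all genes. Groups apart in either direction were found in 3.99% of all genes. ZFAND2A rose by 3.20 (SE 0.53, limma adjusted p 2.87e-05) over all lines, 2.77 (SE 0.24, limma adjusted p 8.07e-05) in MINO and 3.62 (SE 0.57, limma adjusted p 2.51e-05) in BTZ_CLF against CLF. In all 4 lines the BTZ mean was higher, by 1.73 to 3.72 on the log2(CPM + 1) scale.

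ZFAND2A also differed among libraries without BTZ. IBR libraries had 125, 136 and 57.0 CPM in MINO-P, 91.6, 107 and 55.1 in MINO-VR, 28.9, 42.1 and 21.7 in JEKO-1 and 372 and 46.4 in Z138. All IBR libraries of the MINO lines lay above their untreated level, those of JEKO-1 reached from 21.7 to 42.1 CPM against 19.4, and those of Z138 were far apart. The fitted rise of 1.56 (SE 0.52, limma adjusted p 0.0436) lost its call with 17 of 56 left-out libraries. These included Z138 IBR replicate 1, without which it was 1.19 (adjusted p 0.12), and the highest adjusted p was 0.158, without Z138 CON replicate 2. Z138 also had 194 CPM with YM155 and 135 with IBR_YM155, and MINO-P had 259 and 255 with IBR_CLF. In these libraries UBB was high as well. In BTZ against IBR the difference was 1.63 (SE 0.49, limma adjusted p 0.016), a call lost without JEKO-1 BTZ replicate 1 (adjusted p 0.0625) or 2 (0.0656). It was 0.68 (adjusted p 0.597) without JEKO-1. IBR_CLF against CLF gave a rise of 1.68 (SE 0.51, limma adjusted p 0.0366), a call that 9 of 56 left-out libraries ended, with adjusted p up to 0.083.

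ZFAND5 (chr9:72351413-72365235, minus strand, ENSG00000107372), the activator of proteasomal breakdown, rose with BTZ and with IBR. Untreated libraries had 88.5 CPM in MINO-P, 149.8 in MINO-VR, 129 in JEKO-1 and 151 and 151 in Z138. With BTZ it had 495 in MINO-P, 478 in MINO-VR, 577, 533 and 182 in JEKO-1 and 416 in Z138. The rise was 1.74 (SE 0.25, limma adjusted p 3.44e-06) over all lines, 2.04 (SE 0.15, limma adjusted p 3.76e-05) in MINO and 1.77 (SE 0.27, limma adjusted p 1.3e-05) in BTZ_CLF against CLF. Untreated libraries ran from 88.5 to 151 CPM and IBR libraries from 218 to 421 CPM, with a median of 301. These ranges did not overlap. In IBR against CON, IBR lay wholly above in 1 of 9 genes and in 1.13% of all genes. Ranges apart in either direction were found in 2.52% of all genes. ZFAND5 rose by 1.14 (SE 0.24, limma adjusted p 0.00169) with IBR. In IBR_CLF against CLF its difference was 0.49 (SE 0.24, limma adjusted p 0.206), which did not pass. In BTZ against IBR the difference was 0.60 (SE 0.23, limma adjusted p 0.0597), and 0.86 (SE 0.21, limma adjusted p 0.00323) without JEKO-1 BTZ replicate 3.

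USP14 (chr18:158383-214629, plus strand, ENSG00000101557), the deubiquitylase bound to the proteasome, rose with BTZ. Untreated libraries had 184 CPM in MINO-P, 170.2 in MINO-VR, 225 in JEKO-1 and 170.2 and 181 in Z138. BTZ gave 501 in MINO-P, 389 in MINO-VR, 348, 329 and 690.3 in JEKO-1 and 346 in Z138, with no overlap between the groups. USP14 rose by 1.12 (SE 0.26, limma adjusted p 0.0013) over all lines, 1.38 (SE 0.10, limma adjusted p 3.83e-05) in MINO and 0.92 (SE 0.27, limma adjusted p 0.0161) in BTZ_CLF against CLF. IBR libraries ran from 114 through a median of 196 to 308 CPM, across the untreated range, with a difference of 0.08 (SE 0.25, limma adjusted p 0.894). BTZ against IBR was tested directly and gave 1.04 (SE 0.24, limma adjusted p 0.00171). With CPM as deposited the rise with BTZ was 0.74 and did not pass (adjusted p 0.181). In BTZ_CLF against CLF, any of 3 left-out MINO libraries ended the call (adjusted p 0.057 to 0.0585).

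**Figure D3:**
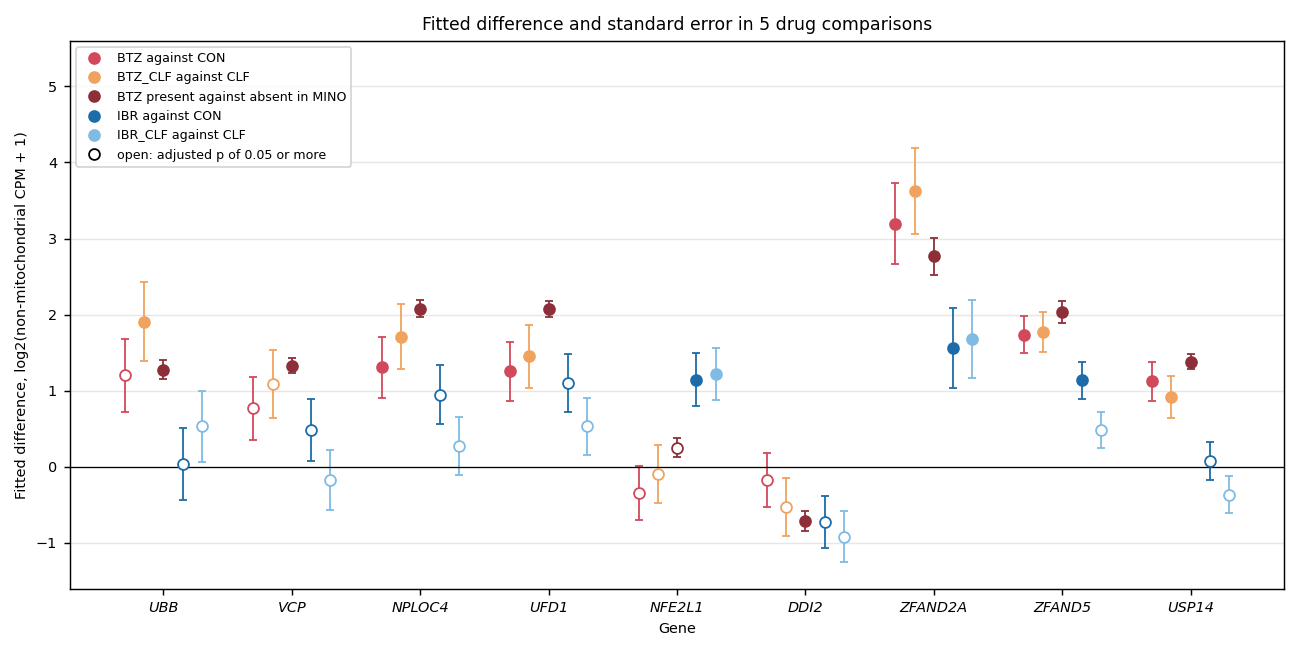
Fitted difference on the log2(non-mitochondrial CPM + 1) scale with its standard error, for the 9 genes in 5 comparisons, filled where the limma adjusted p was under 0.05. ZFAND2A has the highest values with BTZ (2.77 to 3.62), NFE2L1 is filled only with IBR, and DDI2 is filled only in the MINO layout, below 0.

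The comparisons with IBR share their untreated libraries with those of BTZ, so the values below stand side by side only. In IBR against CON 3 of 9 were called, NFE2L1, ZFAND2A and ZFAND5, all higher (10.8% of all genes called). In BTZ against IBR 3 were called, ZFAND2A and USP14 higher with BTZ and NFE2L1 lower (18.4% of all genes), and 8 without JEKO-1 BTZ replicate 3. Of all genes, BTZ against IBR called 3167, and 2334 to 3648 with 1 library left out at a time. IBR against CON in the MINO lines crosses library series, since their untreated libraries belong to HK and their IBR libraries to MCL. The MINO libraries of BTZ and CLF are HK as well, and those of IBR_CLF, YM155, S63845 and BTZ_YM155 are MCL. In MINO, series is therefore also crossed by BTZ against IBR, IBR_CLF against CLF, YM155 and S63845 against CON, and YM155 added to BTZ. BTZ_CLF against CLF compares other libraries than BTZ against CON, but the MINO layout holds MINO libraries of both. It called 6 of 9, all higher: UBB, NPLOC4, UFD1, ZFAND2A, ZFAND5 and USP14 (16% of all genes). In these 6 every BTZ_CLF library lay above every CLF library, as in 3.35% of all genes, and 9.29% were apart in either direction. With CPM as deposited this comparison called 4 of 9, ZFAND2A and ZFAND5 higher and NFE2L1 (adjusted p 0.0471) and DDI2 (adjusted p 0.017) lower, and the median of all genes moved from -0.15 to -0.75. IBR_CLF against CLF called NFE2L1 and ZFAND2A, both higher (7.06% of all genes).

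None of the 9 was called by limma in CLF, S63845 or YM155 against CON, in CLF or YM155 added to BTZ, in CLF added to IBR or in BTZ added to YM155. CLF against CON called 0% of all genes, with 62 of 17203 genes and 0 of 9 members at an unadjusted p under 0.05. S63845 against CON called 0% (428 genes and 0 members unadjusted), and YM155 against CON called 1.15% of all genes (0 members, 2 unadjusted). CLF added to BTZ called 0.0698% of genes and CLF added to IBR 0% (1679 genes unadjusted), with 0 members at an unadjusted p under 0.05 in either. YM155 added to BTZ called 0.477% of genes and 0 members (3 unadjusted). BTZ added to YM155 called 0.552% of genes and 0 members, though 6 were at an unadjusted p under 0.05. The last comparison rested on 2 BTZ_YM155 libraries, with 615 and 480.1 CPM of ZFAND5 against 163 and 178 with YM155 in the same lines, MINO-P and MINO-VR. ZFAND5 there differed by 1.23 (SE 0.36, limma adjusted p 0.102). Without JEKO-1 BTZ replicate 3, 3 of 9 were called in it by limma: NPLOC4 at 1.28 (adjusted p 0.0398), UFD1 at 1.53 (adjusted p 0.00491) and ZFAND5 at 1.23 (adjusted p 0.0191). Of all genes, this comparison called 95 with every library in, and 11 to 369 with 1 library left out at a time.

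**Figure D4:**
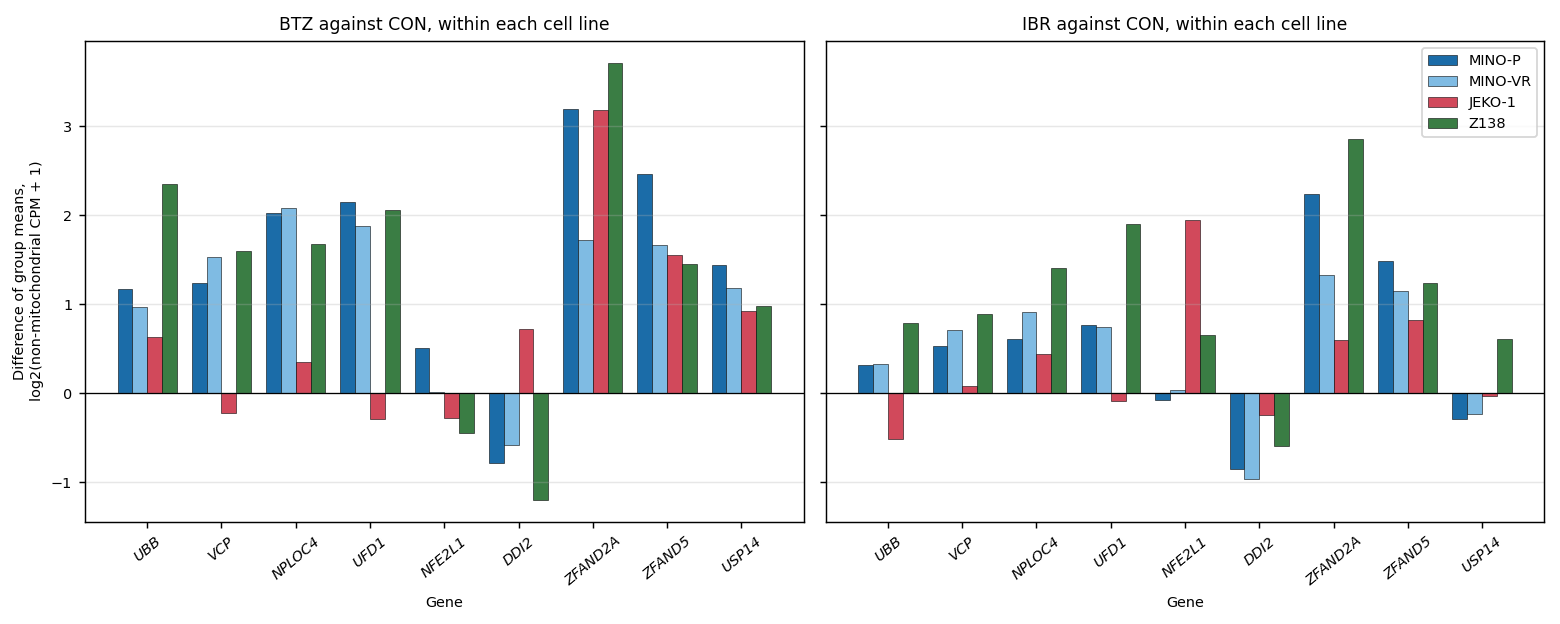
Difference of group means on the log2(non-mitochondrial CPM + 1) scale within each cell line, for BTZ against CON (left) and IBR against CON (right), 1 bar per line. ZFAND2A, ZFAND5, USP14, UBB and NPLOC4 are above 0 with BTZ in 4 of 4 lines, and JEKO-1, whose mean includes replicate 3, has the shortest or negative bars for VCP, UFD1 and NPLOC4.

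The lines were compared for the size of the BTZ response. Between MINO-VR and MINO-P the interaction called 0 of 9 genes and 8.12% of all genes (3 members at an unadjusted p under 0.05). The interaction value, MINO-VR minus MINO-P, was -1.02 (SE 0.32, limma adjusted p 0.0853) for ZFAND2A and -0.61 (SE 0.18, limma adjusted p 0.0695) for ZFAND5, neither past the threshold. Without the MINO-VR BTZ_CLF library both passed, at -1.48 (adjusted p 0.00368) and -0.74 (adjusted p 0.0277). The pairs behind this were 3.20 (BTZ against CON) and 3.36 (BTZ_CLF against CLF) for ZFAND2A in MINO-P and 1.73 and 2.79 in MINO-VR. Across all 4 lines an F-test of line by BTZ, added after seeing the data, called 0 of 9 genes (0 unadjusted) and 2.75% of all genes. Without JEKO-1 BTZ replicate 3 it called 4 of 9, DDI2, UFD1, ZFAND2A and USP14, and 20.2% of all genes.

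Levels were also compared between lines with treatment held constant, where the share of members called was no higher than that of all genes. JEKO-1 against MINO-P called 3 of 9 genes (39.1% of all genes): NFE2L1 was higher by 0.69 (SE 0.26, limma adjusted p 0.0316) and VCP by 0.80 (SE 0.31, limma adjusted p 0.0329), and UBB was lower, at -1.07 (SE 0.35, limma adjusted p 0.0135). As deposited the values of NFE2L1 and VCP were 0.29 and 0.41, not past the threshold. Their calls were ended by 5 and 7 of 56 left-out libraries, with adjusted p up to 0.0922 and 0.066. Z138 against JEKO-1 called 3 of 9 (54.5% of all genes): UBB was higher by 1.19 (SE 0.31, limma adjusted p 0.0013), NPLOC4 higher by 0.72 (SE 0.26, limma adjusted p 0.0169) and DDI2 lower, at -0.52 (SE 0.23, limma adjusted p 0.05, just under the threshold before rounding). The DDI2 call was lost with 41 of 56 left-out libraries, and as deposited its value was -0.0044. MINO-VR against MINO-P called 1 of 9 (23.5% of all genes), UFD1, lower in MINO-VR, with a difference of -0.57 (SE 0.09, limma adjusted p 6.89e-05). UFD1 was lower in MINO-VR in each of CON, CLF, BTZ and BTZ_CLF, at 31.7, 33.3, 119.5 and 142 CPM against 42.7, 41.3, 193 and 196.

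Ordered by their median over libraries, the treatments fell into orders that differed between the genes. For NPLOC4, UFD1, ZFAND2A, ZFAND5 and USP14 the 4 treatments with BTZ held the 4 highest medians, and CON the lowest for NPLOC4, UFD1, ZFAND2A and ZFAND5. UBB and VCP likewise had the 4 BTZ treatments on top, BTZ (1937 CPM) and BTZ_CLF (1836) for UBB and BTZ_CLF (1114) and BTZ (1030) for VCP. NFE2L1 ran from S63845 (383 CPM) to IBR_CLF (821), and DDI2 from BTZ_YM155 (54.5 CPM) to CON (154). Most neighbours in these orders overlapped: the ranges of adjacent treatments were apart in 0 of 11 steps for UBB, DDI2 and ZFAND5, 1 of 11 for VCP, NFE2L1, ZFAND2A and USP14 and 2 of 11 for NPLOC4 and UFD1. For ZFAND2A that step lay between IBR_YM155 and BTZ_S63845, and for USP14 between IBR_S63845 and BTZ.

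The genes differed in how closely they moved together. Over the 37 group means, each centred on its cell line, VCP and NPLOC4 had the highest correlation among the 9 (r = 0.93), followed by NPLOC4 with ZFAND5 (0.88) and with UFD1 (0.88). UBB was closest to ZFAND2A (0.81). DDI2 ran against ZFAND2A (-0.65), UFD1 (-0.62) and UBB (-0.58), and NFE2L1 ran from -0.36 (DDI2) to 0.22 (ZFAND5). Among 9783 genes with a mean of at least 10 CPM, those most like UBB included TCP1 (r = 0.87) and SEM1 (0.86), those most like NFE2L1 were TRIB3 (0.89), SESN2 (0.86) and SLC1A5 (0.86), and those most like ZFAND2A were BAG3 (0.94), HSPA6 (0.94) and DNAJB1 (0.93). VCP was most like PRDX1 (0.92), GLA (0.92) and TALDO1 (0.91), NPLOC4 like PI4K2A (0.95), BSDC1 (0.94) and PCYT1A (0.94), and UFD1 like BRF2 (0.94), BSDC1 (0.93) and TTC1 (0.93). DDI2 was most like SLC4A7 (0.93), CBX5 (0.91) and MIB1 (0.90), ZFAND5 like PHTF1 (0.94), NPC1 (0.93) and USP38 (0.92), and USP14 like PSMB2 (0.93), LARP4 (0.93) and YWHAG (0.90). All these values share the same libraries and depths and include JEKO-1 BTZ replicate 3, and they are descriptions.

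**Figure D5:**
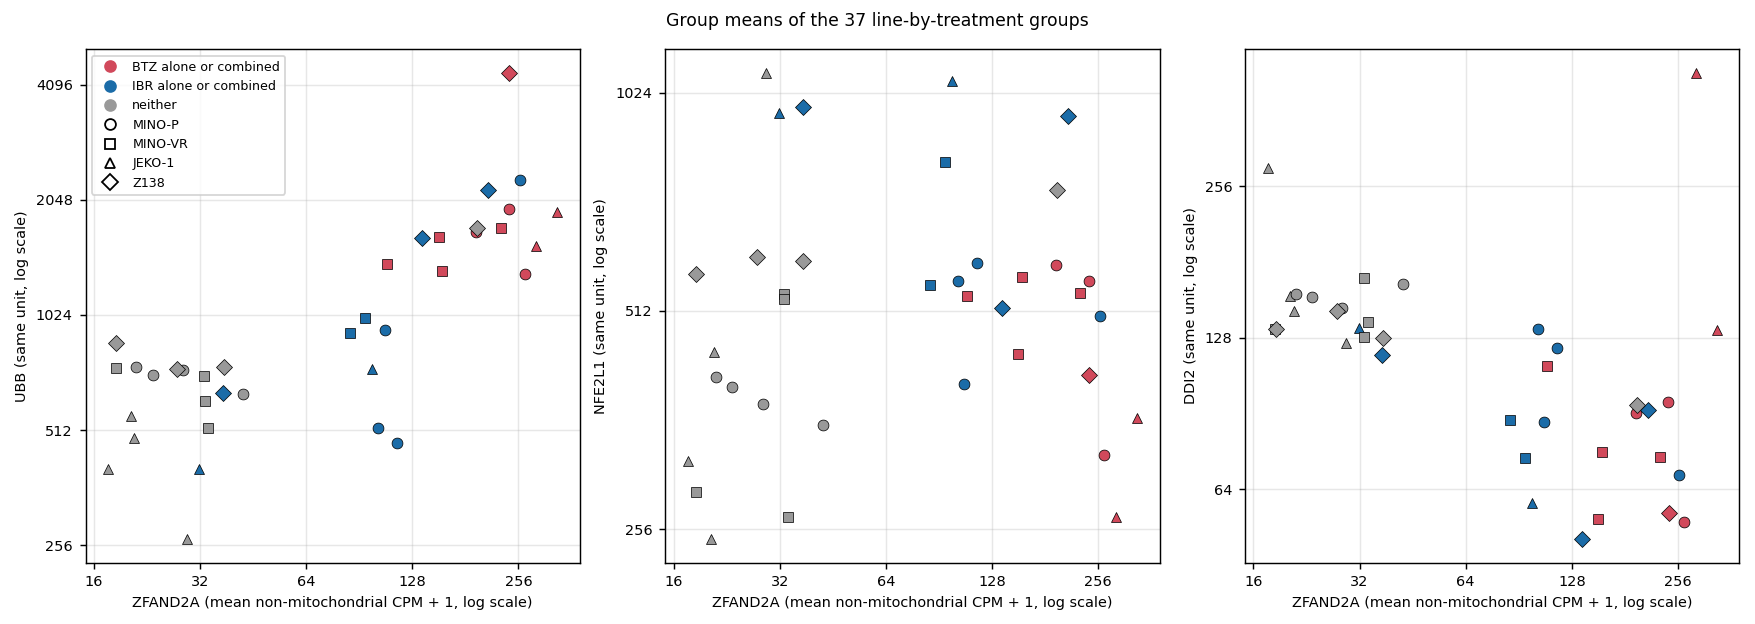
Mean level in each of the 37 line-by-treatment groups, as non-mitochondrial CPM + 1 on log axes, of UBB (left), NFE2L1 (middle) and DDI2 (right) against ZFAND2A, coloured by drug and shaped by line. UBB climbs with ZFAND2A (r = 0.81 after centring on line), NFE2L1 shows little relation (0.11), and DDI2 declines (-0.65) apart from the JEKO-1 BTZ mean, which includes replicate 3.

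The wider pathway gives the setting for the 9. In BTZ against CON 12 of 37 proteasome subunits rose and 0 fell, with a median of 0.62. This became 34 of 37 without JEKO-1 BTZ replicate 3 and 36 of 37 in the MINO layout, while IBR against CON called 0 higher and 1 lower (PSMD5, -0.70, adjusted p 0.0356, named after its value was seen). PSMD12 rose by 1.46 (SE 0.24, adjusted p 1.8e-05) and PSMD11 by 1.26 (SE 0.23, adjusted p 0.000108), both subunits of the regulatory particle.

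VCP cofactors and partners, 27 of which were tested, had 8 called higher and 2 lower in BTZ against CON (8 and 3 without JEKO-1 BTZ replicate 3), with a median of 0.35. PLAA, a ubiquitin-binding cofactor, rose by 1.20 (SE 0.30, adjusted p 0.00357) and NSFL1C, the cofactor also named p47, by 1.03 (SE 0.32, adjusted p 0.0193). DERL3 and SYVN1, a channel component and the ubiquitin ligase of endoplasmic reticulum disposal, changed by -2.43 (SE 0.44, adjusted p 7.64e-05) and -0.98 (SE 0.25, adjusted p 0.00442). DERL3 was low, at 5.17 to 24.0 CPM untreated and 0 to 3.59 CPM with BTZ. In the MINO layout SYVN1 differed by -0.35 (limma adjusted p 0.13), not past the threshold. Among 13 tested genes for NFE2L1 processing and partners, 3 were higher and 2 lower (4 and 2 without that library), with a median of 0.32. SYVN1 is also on this list, and the third that rose was BACH1, a repressor that shares the small Maf partners (1.18, adjusted p 0.000856). MAFG and MAFF, small Maf partners with which NFE2L1 binds DNA, rose by 1.57 (SE 0.44, adjusted p 0.00821) and 1.91 (SE 0.56, adjusted p 0.012), and MAFG also rose with IBR (2.48, adjusted p 0.000148). MAFF was low, at 0.542 to 6.06 CPM untreated and 0 to 21.0 CPM with BTZ. NFE2L3, a close relative of NFE2L1, changed by -2.31 (SE 0.44, adjusted p 0.000143).

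Of 13 proteasome-bound enzymes and shuttle factors, 4 were higher and 1 lower with BTZ, with a median of 0.30. The deubiquitylating subunit PSMD14 (1.25, adjusted p 0.00161) and the shuttle factor UBQLN1 (1.23, adjusted p 1.12e-05) rose, and like BACH1 they were named after their values were seen. SQSTM1, the autophagy receptor for ubiquitylated cargo, averaged 1680 ± 917 CPM (n = 6) with BTZ and 210 ± 42.1 (n = 5) without, a rise of 2.44 (SE 0.57, adjusted p 0.00166), and rose by 2.98 (adjusted p 0.000404) with IBR. JEKO-1 BTZ replicate 3 had 47.4 CPM of SQSTM1, and the BTZ rise was 3.22 (adjusted p 1.17e-07) without it. TAX1BP1, another receptor of this kind, rose by 1.40 (SE 0.21, adjusted p 4.95e-06), and UBQLN4, a relative of UBQLN1, changed by -0.84 (SE 0.23, adjusted p 0.007). Of the 5 other ZFAND genes, 1 rose and 1 fell (2 and 1 without JEKO-1 BTZ replicate 3), ZFAND6 by 0.60 (SE 0.18, adjusted p 0.0172) and ZFAND2B by -1.22 (SE 0.31, adjusted p 0.00346), and their median was 0.37. ZFAND2B, the membrane-bound relative of ZFAND2A, thus moved opposite to it. The level of ZFAND2B was low, at 11.4 to 19.8 CPM untreated and 2.29 to 12.8 CPM with BTZ. Among 15 ubiquitin activation and ligase genes 1 was higher and 1 lower (2 and 2 without that library), UBR4 at 0.95 (SE 0.33, adjusted p 0.0348) and STUB1 at -1.08 (SE 0.29, adjusted p 0.00571; -0.67 and 0.00591 without that library), with a median of -0.04. STUB1 differed by -0.28 (limma adjusted p 0.0761) in the MINO layout, not past the threshold. The counts in BTZ against CON stand against 18.6% of all genes called and a median over all genes of -0.17. Those without JEKO-1 BTZ replicate 3 stand against 23.3% and a median of -0.13. Those in the MINO layout stand against 56.2% and a median of -0.18, and those in IBR against CON against 10.8%. The lists were drawn up with earlier results of these data known, so they are no independent evidence of a direction.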

How the data were processed

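Poly-A RNA of 56 libraries was sequenced. Per the labels' protocols, cells were lysed over QIAshredder columns, RNA was purified with RNeasy kits and TruSeq libraries were read as pairs. The submitters' processing notes name Partek and hg38, while the aligner, counter, annotation, strand use and any filter are not given in the sources used here. The deposited values are log2(CPM + 1), since each column sums to between 999983.98 and 1000008.59 CPM once the log2 is undone. The depth read from the steps between low values was 5.51 to 21.6 (median 16.0), in units of 1e6 reads. At this depth 3 reads equal 0.139 to 0.545 CPM as deposited, mitochondrial reads included. Scaling to non-mitochondrial reads raises these values, by a factor of 5.13 in JEKO-1 BTZ_CLF replicate 1, the library with the highest mitochondrial share. Between 81.3% and 89.4% of low values were whole reads within 0.05, so no count test was run. Reads under a blank gene name, 0.000773% or less in any library, were dropped.

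From these, 15 mitochondrial genes were removed, CPM was rescaled and log2(CPM + 1) taken, a scale that understates changes of low genes. Genes with at least 1 CPM in 2 libraries entered limma 3.58.1 (R 4.3.3, trended variance), with Benjamini-Hochberg adjustment over all genes tested and a threshold of 0.05. The model of 56 libraries had terms for treatment, cell line and library series (8 HK and 48 MCL libraries, as the library names have it). The MINO fits used 8 libraries with line, CLF and BTZ as terms, and MINO-VR against MINO-P used the treatments both lines share. The line-by-BTZ test was added after the data were seen. Replicate numbers follow sample order only.

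All 9 members are named, with the 3 genes most like each and, for each pathway list, up to 2 called genes with the largest rise and 2 with the largest fall. A gene that falls under this rule is not reported here. The members and lists were chosen with earlier results of these data known. Alternatives changed the scaling, filter, pseudocount (0.25 and 4), covariates, weights, lines and libraries. The fits were tested on simulated data. Promoter windows came from RefSeq (GRCh38.p14) and motifs were searched as the letters given, on both strands.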

Additional observations from a re-analysis of the deposited data

How the results depend on the processing

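Of 9864 member values under alternatives, 9519 stayed on the same side of the threshold. Of the rest, 195 lost a call and 150 gained one, and 0 reversed a call. Values not called in either fit did not all keep their direction. NFE2L1 in BTZ against CON was -0.35 with all libraries and 0.04 without JEKO-1 BTZ replicate 3, neither past the threshold. The 2 libraries that stand apart were left out, and the line-by-BTZ test was added, after the data were seen. The cause of the changes below was not tested, beyond the smaller number of libraries where some are left out. A fit with the replicate number as a block could not be made, since the labels give no numbers that groups share. The MINO layout instead matches libraries by line and CLF. The member counts below are given without the share of all genes called in the same setting. The number of all genes called also moved between settings, within the bounds given at the end. A higher member count can therefore come with more calls among all genes.

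The number of the 9 genes called in BTZ against CON (5) was 2 with CPM as deposited and with JEKO-1 and Z138 only, 3 with name pairs averaged, without libraries over 50% mitochondrial and without MINO-P, MINO-VR or Z138, and 8 with array weights, without the 2 libraries that stand apart and without JEKO-1. In IBR against CON (3) it was 0 with JEKO-1 and Z138 only, 1 with name pairs averaged and without MINO-P or MINO-VR, and 6 with array weights. In BTZ against IBR (3) it was 1 with JEKO-1 and Z138 only and without JEKO-1, and 8 with array weights and without the 2 libraries. In BTZ_CLF against CLF (6) it was 2 with JEKO-1 and Z138 only, and 3 without libraries over 50% mitochondrial and without MINO-VR. In IBR_CLF against CLF (2) it was 0 as deposited, with JEKO-1 and Z138 only, with name pairs averaged, without libraries over 50% mitochondrial and without MINO-P, MINO-VR or JEKO-1. It was 1 there with no filter, no library-series term, the library-name suffix as a term, and line and treatment averaged, and 4 with array weights. In BTZ_YM155 against YM155 (0) it was 1 with size factors and without Z138, 2 with line and treatment averaged, 3 without the 2 libraries, 4 without JEKO-1 and 7 with array weights. YM155 against CON (0) had 1 without the 2 libraries and without JEKO-1.

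In JEKO-1 against MINO-P (3) it was 1 with name pairs averaged and without MINO-VR, and 5 with array weights and without the 2 libraries. In Z138 against JEKO-1 (3) it was 6 as deposited, 1 with JEKO-1 and Z138 only and 5 without libraries over 50% mitochondrial. In MINO-VR against MINO-P (1) it was 3 with size factors, 2 with line and treatment averaged and 5 with array weights. The line-by-BTZ test (0) called 5 as deposited.

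Leaving out each library in turn gave 4 to 8 members in BTZ against CON, 1 to 5 in IBR against CON, 2 to 8 in BTZ against IBR, 5 to 7 in BTZ_CLF against CLF, 0 to 3 in BTZ_YM155 against YM155 and 0 to 3 in IBR_CLF against CLF. It gave 1 to 4 in JEKO-1 against MINO-P, 2 to 4 in Z138 against JEKO-1, 1 to 3 in MINO-VR against MINO-P, 0 to 2 in the MINO-VR interaction and 8 to 8 in the MINO layout, and the line-by-BTZ test gave 4 without JEKO-1 BTZ replicate 3.

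Over the settings, the number of all genes called in BTZ against CON (3204) lay between 1214 and 5235, in IBR against CON (1851) between 191 and 5055, and in BTZ against IBR (3167) between 893 and 4256. For BTZ_CLF against CLF (2759) the bounds were 540 and 6844, for IBR_CLF against CLF (1214) 0 and 4080, for YM155 against CON (197) 0 and 1141 and for BTZ_YM155 against YM155 (95) 3 and 1210. BTZ_YM155 against BTZ (82) had 8 and 239, BTZ_CLF against BTZ (12) 0 and 53 and IBR_CLF against IBR (0) 0 and 596. JEKO-1 against MINO-P (6725) had 2769 and 8006, Z138 against JEKO-1 (9377) 3551 and 10204, MINO-VR against MINO-P (3481) 2470 and 5045, the MINO-VR interaction (1092) 15 and 1197 and the line-by-BTZ test (430) 430 and 4305. With 22 of 37 groups holding 1 library, most spreads rest on libraries of other groups, and depth does not limit the members, whose lowest level was 13.7 CPM.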
